A study of Mus musculus with 4 samples.

Results

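TNF receptor-associated factors (TRAF proteins), the cellular inhibitors of apoptosis cIAP1 and cIAP2 and the caspase-8 homologue c-FLIP carry signals from receptors of the TNF receptor superfamily into the cell. Their 9 genes (Traf1, Traf2, Traf3, Traf4, Traf5, Traf6, Birc2, Birc3 and Cflar) were compared between mouse regulatory T (Treg) cells with and without an intact Foxp3 gene. A probe set was taken as a member when its gene symbol in the platform annotation was exactly one of these 9. This gave 20 of 45101 probe sets, for 8 of the 9 genes, among 18193 genes with a probe set in all. No listed probe set matched Traf3, which was not analysed here.

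All cells were mouse CD4+ YFP+ Ly5.2+ T cells that had been given Cre recombinase with the construct HR-MMPCreGFP and were recovered 6 weeks after adoptive transfer. In the deleted group (YFP+Foxp3delta, 2 arrays) the Foxp3 gene was flanked by loxP sites. In the wild-type group (YFP+Foxp3+, 2 arrays) Foxp3 was not, so both groups had been exposed to Cre, which YFP reported. The question was what mature peripheral Treg cells express once Foxp3, the transcription factor that defines them, has been ablated. The sources used here give no age, strain, recipient or pooling, and they do not state that the arrays of a group came from separate animals or preparations. The p-values therefore reflect the spread between these arrays alone, and that spread may be technical.

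TRAF proteins bind the tails of receptors such as CD27, OX40, 4-1BB, GITR and TNFR2, which have no enzyme activity of their own. TRAF2 bridges these receptors to cIAP1 and cIAP2, ubiquitin ligases encoded by Birc2 and Birc3, and the assembled complex opens the NF-kappaB and JNK pathways and restrains the alternative NF-kappaB pathway. c-FLIP, encoded by Cflar, blocks caspase-8 in death receptor complexes, and in T cells Traf1, Birc3 and Cflar are well-known NF-kappaB target genes.

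The upstream sequence is shown for 4 genes on which the results below turn. These are Traf2, with the lowest difference among the members, Traf5, its close relative, and the neighbouring genes Birc2 and Birc3 on chromosome 9. Each is the 250 bases before a RefSeq start site in assembly GRCm38.p6, printed 5′ to 3′ on the gene's own strand. Birc2 had a further window, not shown. Capitals mark any match on either strand to the forkhead core TGTTT, the GC box GGGCGG or the cyclic AMP response element TGACGTCA.
Traf2 (chr2:25546941-25547190, minus strand): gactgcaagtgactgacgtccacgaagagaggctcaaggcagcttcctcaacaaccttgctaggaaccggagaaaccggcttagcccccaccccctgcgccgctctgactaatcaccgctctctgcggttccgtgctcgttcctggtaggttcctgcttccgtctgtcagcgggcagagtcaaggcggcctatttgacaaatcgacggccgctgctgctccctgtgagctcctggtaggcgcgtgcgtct
Traf5 (chr1:192092600-192092849, minus strand): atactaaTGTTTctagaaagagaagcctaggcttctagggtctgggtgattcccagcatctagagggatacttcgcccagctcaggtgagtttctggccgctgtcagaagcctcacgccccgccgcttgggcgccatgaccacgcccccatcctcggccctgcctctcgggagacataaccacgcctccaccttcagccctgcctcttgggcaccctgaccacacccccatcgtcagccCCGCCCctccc
Birc2 (chr9:7837058-7837307, minus strand): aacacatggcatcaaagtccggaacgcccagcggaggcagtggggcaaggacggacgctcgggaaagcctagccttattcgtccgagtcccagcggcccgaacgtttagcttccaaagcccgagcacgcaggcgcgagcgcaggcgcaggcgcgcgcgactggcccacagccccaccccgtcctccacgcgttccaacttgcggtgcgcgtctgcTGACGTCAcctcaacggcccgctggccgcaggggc
Birc3 (chr9:7873171-7873420, minus strand): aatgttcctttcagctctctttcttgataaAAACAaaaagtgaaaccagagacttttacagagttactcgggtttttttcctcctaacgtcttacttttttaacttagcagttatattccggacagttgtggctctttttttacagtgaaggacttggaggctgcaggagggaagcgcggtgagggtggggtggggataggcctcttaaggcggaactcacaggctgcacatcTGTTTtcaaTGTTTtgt

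RefSeq windows matched all 9 genes. Over the windows of the 8 measured genes, the NF-kappaB consensus and the longer forkhead motif TGTTTAC, searched on both strands, were found in 0 genes each. Over 32851 windows of the same length they were found in 3.9% and 3.17%. The core TGTTT, which lies within TGTTTAC, was found in 5 of the 8 genes and in 46.4% of all windows, and GGGCGG in 4 of the 8 and in 32.7%. For Birc2, GGGCGG was found only in the window not shown. A gene was counted when any of its windows matched, whereas the percentages count single windows. TGACGTCA was found in Birc2 alone and in 1.55% of all windows. The window of Traf3, which was not measured and is left out of these counts, held an NF-kappaB match and GGGCGG. The Traf2 and Birc2 windows shown held 60.8% and 68.4% G and C with 19 and 31 CpG pairs, against 43.6% and 6 in Birc3 and medians of 52.4% and 6 over all windows. A match describes the letters only, and a missing match says nothing about binding by a factor.

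Values are log2 GCRMA intensities, where a difference of 1 is 2-fold. Foxp3 read 8.77 and 8.75 (deleted) against 11.40 and 11.23 (wild type), so the arrays followed their labels, although the position of its probe set relative to the deleted part is not known here. The other Treg markers, Il2ra, Ctla4, Ikzf2 and Tnfrsf18, were lower in deleted cells by 4.33, 3.39, 1.98 and 1.715. All 5 Treg markers, Foxp3 included, were at least 2-fold lower without overlap, against 4.93% of all genes tested. In limma 0 of them passed. All 6 measured T cell markers were tested, and Cd3d, Cd3e, Cd3g, Cd2 and Cd5 lay above 10 on every array. Cd4, the marker of the sort, read 9.03 and 9.63 (deleted) against 8.38 and 7.15 (wild type), a difference of 1.56 without overlap. Cd2 differed by -0.91, also without overlap, and neither passed in limma (adjusted p = 0.48 for Cd4 and 0.65 for Cd2). The 4 dendritic cell markers lay below 4 on every array, as did both CD8 markers. The summed intensity of the 6 myeloid markers was 1803 in deleted replicate 1 and between 503 and 624 in the other 3 arrays, with Lyz2 at 9.69 and Tyrobp, an NK and myeloid gene, at 8.64 in that array, while Csf1r lay between 8.30 and 9.85 on all 4. Without that array the Traf2 difference described below was -1.51. The summed intensity of the 5 measured B cell markers ranged from 97.1 to 133 in deleted and from 128 to 176 in wild-type arrays. Single B cell markers differed in opposite directions without overlap. Cd79b read 4.04 and 4.94 (deleted) against 6.58 and 6.49, a difference of -2.04 (adjusted p = 0.299 in limma), and Cd22 read 5.86 and 6.33 against 5.70 and 3.76, a difference of 1.37, while Cd79a and Pax5 were below 4 on every array. The part of these cells in the results was otherwise not tested, and in bulk RNA fewer cells of a type and less RNA per cell cannot be told apart.

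Member probe sets read lower on average in deleted cells, most of all Traf2, and none passed the threshold. Of the 20 probe sets, 12 (from 7 genes) had a mean of at least 4 over all arrays and were tested, and in all 12 both group means were at least 4. Among them 11 had a lower and 1 had a higher mean in deleted cells, with a median difference of -0.44, against 49.5% of the 16281 probe sets tested with a lower mean, 50.5% with a higher mean and a median of 0.01. Without overlap between the groups, 6 of the 12 were lower and 1 was higher, where the shares over all probe sets tested were 21.1% and 18.9%. At least 2-fold apart without overlap were 2 of the 12, both lower (Traf2 and 1 Cflar probe set), against 4.58% of all probe sets tested, and none was higher, against 6.67%. Leaving out deleted replicate 2 reduced that count from 2 to 1. Probe sets of 1 gene measure the same transcripts, so these counts do not rest on 12 separate genes. Wild-type replicate 2 was the highest array for Traf6, Birc2, both Birc3 probe sets, the dimmer Traf1 and the brightest Cflar probe set. Without that array Traf6 was at 0.10, Birc2 at -0.13, Birc3 at -0.23 (brighter) and -0.13 (dimmer), this Traf1 at -0.11 and this Cflar at -0.25. Part or all of their lower means therefore rested on it. All other tested member probe sets differed by more without it, including Traf2 (-1.61) and the higher Cflar probe set (0.63).

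Tested with limma and Benjamini-Hochberg adjustment over all 16281 probe sets, 0 members were past an adjusted p of 0.05, in either direction, as were 0 probe sets in all (0% higher and 0% lower). At an unadjusted p of 0.05, 1 member was lower (Traf2) and 0 were higher, against 3.88% and 5.38% of all probe sets tested. The smallest adjusted p of any probe set was 0.115 and the smallest of a member was 0.309. For a single probe set, an exact permutation test of 2 against 2 arrays cannot give a p below 0.333.

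**Figure D1:**
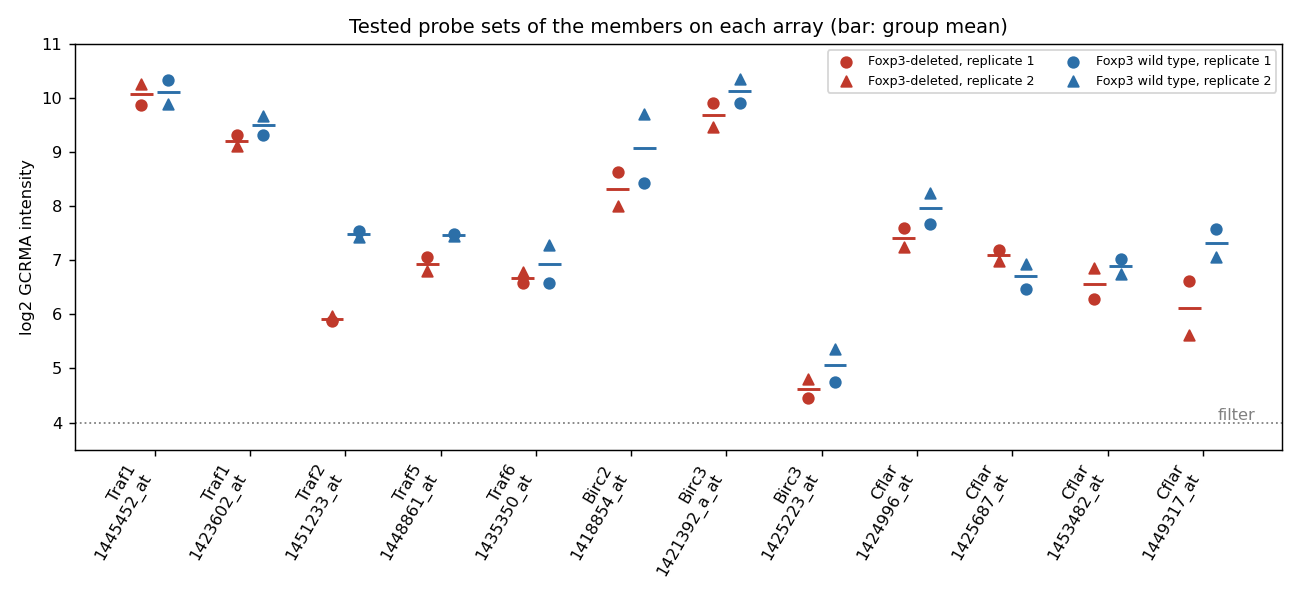
Log2 GCRMA intensity (y axis) of the 12 tested member probe sets (x axis) on each of the 4 arrays, with circles for replicate 1, triangles for replicate 2, red for deleted, blue for wild type and a bar at each group mean. The 2 deleted Traf2 values, 5.88 and 5.97, lie well below the wild-type values of 7.53 and 7.43, while most other pairs of groups touch or overlap.

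Traf2, the adaptor that recruits cIAP proteins, was lower in each deleted array. The only probe set, 1451233_at, read 5.88 and 5.97 in deleted cells and 7.53 and 7.43 in wild-type cells. On the linear scale these were intensities of 58.8 and 62.6 against 185 and 173. The highest deleted array lay 1.46 below the lowest wild-type array, and replicates of a group differed far less than the groups, with SDs of 0.06 and 0.07 (n = 2 per group). The mean was lower by 1.56 (SE 0.34, 95% interval -2.44 to -0.68), which is 2.95-fold and leaves 33.9% of the wild-type signal. In limma its adjusted p was 0.309, and its unadjusted p of 0.0062 ranked 326 of 16281. Its interval alone among the 12 members left out 0. The SEs, intervals and p-values from limma draw partly on the spread of other probe sets, so the Traf2 SE exceeds its replicate SDs.

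Traf5, the TRAF protein most closely related in role to Traf2, read lower by a smaller amount. Probe set 1448861_at read 7.06 and 6.80 in deleted and 7.48 and 7.45 in wild-type cells. The groups did not overlap, with 0.39 between the nearest arrays. The difference was -0.54 (SE 0.35, 95% interval -1.43 to 0.36, adjusted p = 0.707 in limma). The other Traf5 probe set, 1447682_x_at, had a mean of 3.98 over all arrays, just under the filter, and read 3.88 and 3.80 against 4.29 and 3.97. Values so near the floor are compressed, and no direction is read from them. The difference between the Traf2 and Traf5 differences was not tested.

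Traf1, an adaptor without the RING domain of other TRAF proteins and an NF-kappaB target, differed least on its brighter probe set. Probe set 1445452_at read 9.87 and 10.26 in deleted and 10.33 and 9.89 in wild-type cells. The groups overlapped fully, with a difference of -0.04 (SE 0.32, 95% interval -0.86 to 0.77, adjusted p = 0.981 in limma). Probe set 1423602_at read 9.32 and 9.11 against 9.33 and 9.68, a difference of -0.29 (95% interval -1.09 to 0.52), and only 0.0070 lay between the nearest arrays. Neither probe set separated the groups by more than the spread between replicates. The sign of the 1445452_at difference turned when deleted replicate 1 (0.15) or wild-type replicate 1 (0.18) was left out.

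Traf6, the adaptor of interleukin-1 and Toll-like receptors and of CD40, had 5 probe sets, of which only 1435350_at was tested. It read 6.58 and 6.78 in deleted and 6.58 and 7.28 in wild-type cells. The groups overlapped, the difference was -0.25 (SE 0.41, 95% interval -1.31 to 0.81, adjusted p = 0.891 in limma), and without wild-type replicate 2 it was 0.10. The 4 others were below the filter, where no direction is read. Of these 1421376_at read 3.59 and 4.13 against 2.78 and 3.59, and 1443288_at read 2.90 and 2.92 against 2.95 and 4.44. The remaining Traf6 probe sets, 1446940_at and 1421377_at, lay between 2.30 and 2.54 on every array, at the floor.

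Traf4, a family member best known from epithelial cells, was not above the filter. Its probe sets read between 3.75 and 3.84 (1416571_at) and between 2.25 and 2.27 (1460642_at) on the 4 arrays. Such values carry no order between the groups, and no level is given for Traf4.

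Birc2, which encodes cIAP1, differed more between the wild-type replicates than between the group means. Probe set 1418854_at read 8.63 and 7.997 in deleted and 8.44 and 9.71 in wild-type cells. The groups overlapped, and wild-type replicate 2 stood above the other 3 arrays. The difference was -0.76 (SE 0.54, 95% interval -2.16 to 0.64, adjusted p = 0.731 in limma), and it was -0.13 without wild-type replicate 2 and -1.40 without wild-type replicate 1.

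Birc3, the neighbour of Birc2 on the chromosome, encodes cIAP2. Its brighter probe set, 1421392_a_at, read 9.91 and 9.47 in deleted and 9.92 and 10.34 in wild-type cells. Only 0.0039 separated the nearest arrays, so that deleted replicate 1 and wild-type replicate 1 were alike. The difference was -0.44 (SE 0.33, 95% interval -1.29 to 0.40, adjusted p = 0.742 in limma). The dimmer 1425223_at read 4.45 and 4.80 against 4.75 and 5.36, with overlap, and its difference was -0.43 (95% interval -1.41 to 0.54). On the 2 probe sets 73.7% and 74.0% of the wild-type signal was left. Wild-type replicate 2 was the highest array for both Birc3 probe sets and for Birc2.

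**Figure D2:**
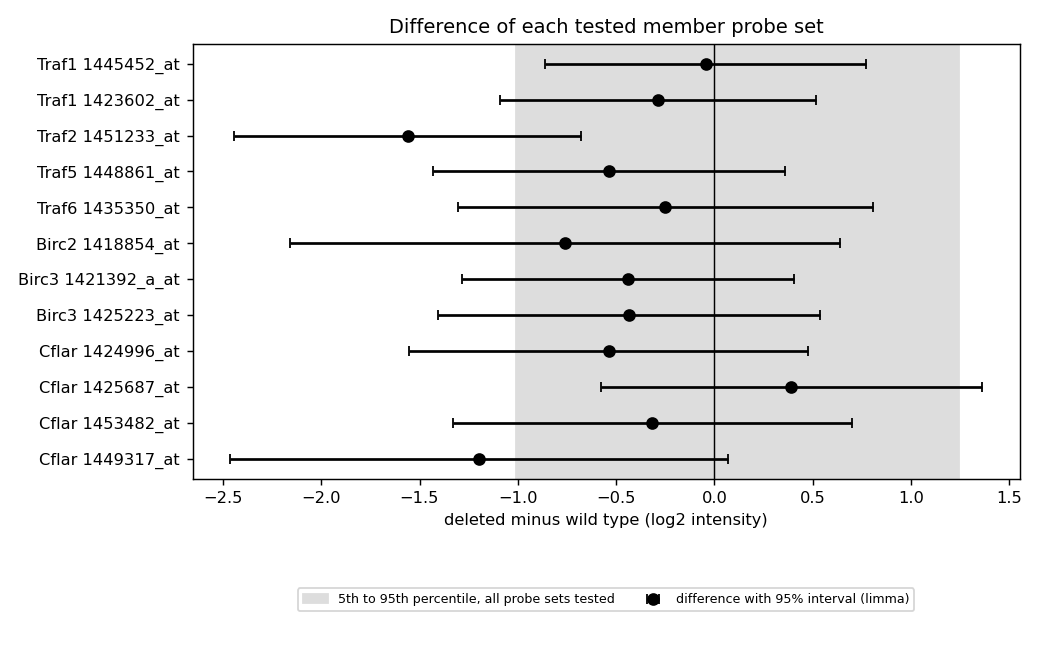
Deleted minus wild-type difference in log2 intensity (x axis) for each of the 12 tested member probe sets (y axis), with 95% intervals from limma, over a grey band from the 5th to the 95th percentile (-1.01 to 1.25) of all 16281 differences. Traf2 (-1.56) and Cflar 1449317_at (-1.20) lie below the band, and the Traf2 interval is the single one that leaves out 0.

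Cflar, the gene of c-FLIP and the neighbour of Casp8, gave different answers on different probe sets. Of its 5 probe sets 4 were tested, of which 3 were lower and 1 was higher. Probe set 1449317_at read 6.62 and 5.62 in deleted and 7.58 and 7.06 in wild-type cells. The groups lay 0.44 apart, and the deleted replicates differed from one another by more than that. The difference was -1.20 (SE 0.49, 95% interval -2.46 to 0.07, adjusted p = 0.565 in limma), or 43.6% of the wild-type signal, and it shrank to -0.70 without deleted replicate 2 and grew to -1.69 without deleted replicate 1.

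The brightest Cflar probe set, 1424996_at, read 7.60 and 7.24 in deleted and 7.67 and 8.25 in wild-type cells. The groups did not overlap but came within 0.07 of each other, with a difference of -0.54 (SE 0.39, adjusted p = 0.738 in limma). In the opposite direction, 1425687_at read 7.20 and 6.99 against 6.46 and 6.94, higher by 0.39 (SE 0.38, 95% interval -0.58 to 1.36), with 0.05 between the nearest arrays. The below-filter probe set 1425686_at, which the annotation ties to the same source sequence as 1425687_at, read 3.32 and 3.25 against 2.36 and 3.32. The last, 1453482_at, overlapped, at 6.28 and 6.85 against 7.02 and 6.75, with a difference of -0.32. Whether these probe sets read different splice forms of Cflar was not tested.

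**Figure D3:**
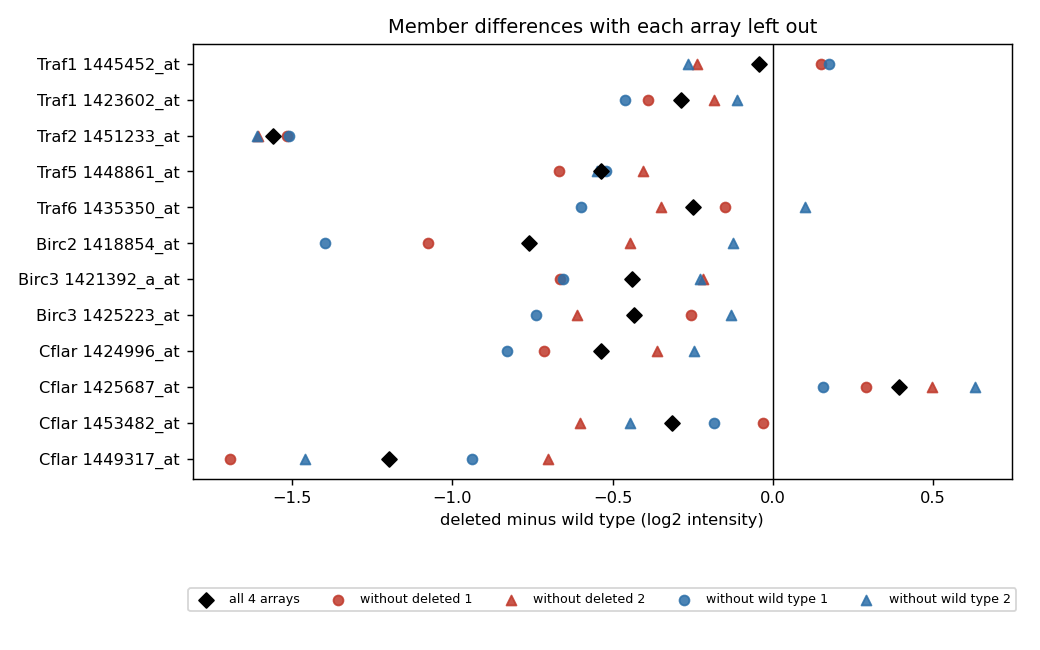
Deleted minus wild-type difference in log2 intensity (x axis) of each tested member probe set (y axis) over all 4 arrays (black diamonds) and with each array left out in turn (red for a deleted, blue for a wild-type array). Traf2 stays between -1.61 and -1.51, whereas Birc2 runs from -1.40 to -0.13, and Traf1 1445452_at and Traf6 cross 0.

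How far a member's difference rested on 1 array differed widely. The Traf2 difference stayed between -1.61 and -1.51 whichever array was left out, and Traf5 between -0.67 and -0.40. Birc3 1421392_a_at ran from -0.66 to -0.22 and 1425223_at from -0.74 to -0.13. Cflar 1424996_at ran from -0.83 to -0.25, 1453482_at from -0.60 to -0.03, and 1425687_at stayed higher, from 0.15 to 0.63. Across these fits Traf1 1445452_at and Traf6 1435350_at changed direction, and the other 10 of the 12 probe sets did not. Where the groups do not overlap, leaving out 1 array cannot turn the sign. Only the probe sets with overlap could therefore have turned.

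Among 8628 other genes, each represented by its brightest probe set above the filter, the array pattern closest to that of Traf2 was that of Hemk1, with a root mean square distance of 0.05 between the centred log2 values of the 4 arrays. Hemk1, a methyltransferase gene, read 6.28 and 6.33 in deleted and 7.84 and 7.86 in wild-type cells. Next came Pon3, a paraoxonase gene (distance 0.09, lower by 1.596), Itgae, the integrin CD103 (0.11, lower by 1.66), the zinc finger gene Zfp949 (0.11, lower by 1.39) and Cd72, a lectin-like receptor gene (0.13, lower by 1.51). None of the 5 passed the threshold in limma, with adjusted p from 0.129 (Itgae) to 0.326 (Cd72). With 4 arrays in 2 groups, this measure is set mainly by the size of the group difference.

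Receptor genes listed as binding TRAF proteins mostly read lower in deleted cells. Tested receptors with a death domain, among them Tnfrsf1a, were listed apart, and their values close this paragraph. The lower readings describe the TRAF-binding list only. Of 18 genes on the TRAF-binding list 8 were tested, with 1 probe set per gene. Of these 7 were lower in deleted cells without overlap, 6 of them at least 2-fold, while Tnfrsf13c had a difference of 0.25 with overlap. Those 6 included Cd40, which read 4.06 and 3.62 against 6.05 and 4.89. The deleted mean of Cd40, 3.84, lay below the filter of 4, which it passed only through its wild-type values. The size of its difference is therefore not read, although Cd40 stays in these counts and in the median. Whether its signal came from T cells was not tested. The median difference was -1.67, against -0.02 over all 8629 genes tested, and of those genes 21.96% were lower without overlap and 4.93% at least 2-fold. Tnfrsf9 (4-1BB), whose tail binds TRAF1 and TRAF2, read 3.99 and 4.67 against 8.63 and 8.78, and its other tested probe set differed by -3.75. Tnfrsf1b (TNFR2), which signals through TRAF2, read 8.40 and 8.55 against 11.58 and 10.65. Tnfrsf4 (OX40), which binds TRAF2, TRAF3 and TRAF5, read 7.96 and 8.49 against 10.51 and 10.66. The adjusted p of these 3 in limma lay between 0.115 and 0.174, so 0 passed. The 3 tested receptors with a death domain all had a higher mean, as did 48.1% of all genes tested. Tnfrsf1a (TNFR1) read 7.55 and 7.47 against 7.01 and 6.89 (difference 0.56, adjusted p = 0.693 in limma). The groups overlapped for Tnfrsf25 (difference 0.45, SE 0.39) and Fas (0.09, SE 0.53).

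Between the receptors and NF-kappaB, differences ran both ways, and 0 genes of any list passed in limma. Over all genes tested, 48.1% had a higher and 51.9% a lower mean. Of 12 tested TRAF partners 8 had a higher and 4 a lower mean (median 0.15). The largest differences without overlap were those of Traip, a TRAF-interacting ubiquitin ligase, at -0.99, the TRAF-binding adaptor Tank at -0.81 and Traf3ip2, the interleukin-17 receptor adaptor Act1, at 0.48. Traip and Tank rested on single arrays, at -0.21 without wild-type replicate 1 and -0.31 without wild-type replicate 2, and Traf3ip2 was at 0.23 without wild-type replicate 2. Of 15 ubiquitin genes 6 had a higher and 9 a lower mean (median -0.19), led by Tnip1, a partner of the deubiquitinase A20, at -0.84 (-0.54 without deleted replicate 1). Peli1, a ubiquitin ligase of the Pellino family, was at -0.56, but its 3 tested probe sets ranged from -0.56 to 2.43. Ube2n, the conjugating enzyme for the chains that TRAF proteins build, was at 0.52.

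Of 17 kinase genes 7 had a higher and 10 a lower mean (median -0.19). Mapk14, which encodes p38alpha, was higher by 1.07, with 9.63 and 9.24 against 7.93 and 8.80 (0.63 without wild-type replicate 1), and its 3 tested probe sets ranged from 0.37 to 1.07. Map3k8 (TPL2) was lower by 0.83 (-0.34 without deleted replicate 2). Map3k14, which encodes the kinase NIK, was higher by 0.72 (0.40 without wild-type replicate 2). TRAF proteins and cIAPs keep NIK low as a protein, which was not measured here. Map3k14 read 4.57 and 4.96 against 4.36 and 3.72, close to the filter. The adjusted p in limma was 0.548 for Mapk14, 0.666 for Map3k8 and 0.652 for Map3k14.

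Of the 10 NF-kappaB subunits and inhibitors tested, 2 had a higher and 8 a lower mean, with a median of -0.56. A lower mean was found in 51.9% of all genes tested. Nfkb2, the substrate of the alternative pathway, was lower by 0.89 (-0.25 without deleted replicate 1), and Nfkbie, an inhibitor, was lower by 0.58 (-0.21 without deleted replicate 1), with its other tested probe set at 0.11. Nfkbib, also an inhibitor, was higher by 0.96 and read 8.03 and 8.11 against 6.92 and 7.31 (adjusted p = 0.521). Of 9 genes of the death complex 7 had a higher and 2 a lower mean (median 0.17). Only Fadd, the adaptor of death receptors, differed without overlap there, at -0.72 (-0.18 without wild-type replicate 1). Of all genes tested, 21.96% were lower and 17.7% higher without overlap.

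Among 8 other IAP family genes and IAP antagonists 3 had a higher and 5 a lower mean (median -0.17). Naip5, a sensor of bacterial flagellin with the BIR domains of this family, was lower by 2.72 and read 4.76 and 4.17 against 7.53 and 6.84 (adjusted p = 0.184). Its paralogues are nearly identical in sequence, so the probe set may read more than 1 Naip gene. Htra2 and Diablo, mitochondrial antagonists of IAP proteins, were lower by 1.07 (8.90 and 9.14 against 10.19 and 9.998) and 0.63 (-0.40 without deleted replicate 2), and the other Diablo probe set differed by -0.05. Xiap, the closest relative of the cIAPs among those tested, read 8.74 and 8.44 against 7.72 and 8.58. Its groups overlapped, wild-type replicate 1 alone lay apart, and the difference was 0.44 (SE 0.43, adjusted p = 0.791 in limma).

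**Figure D4:**
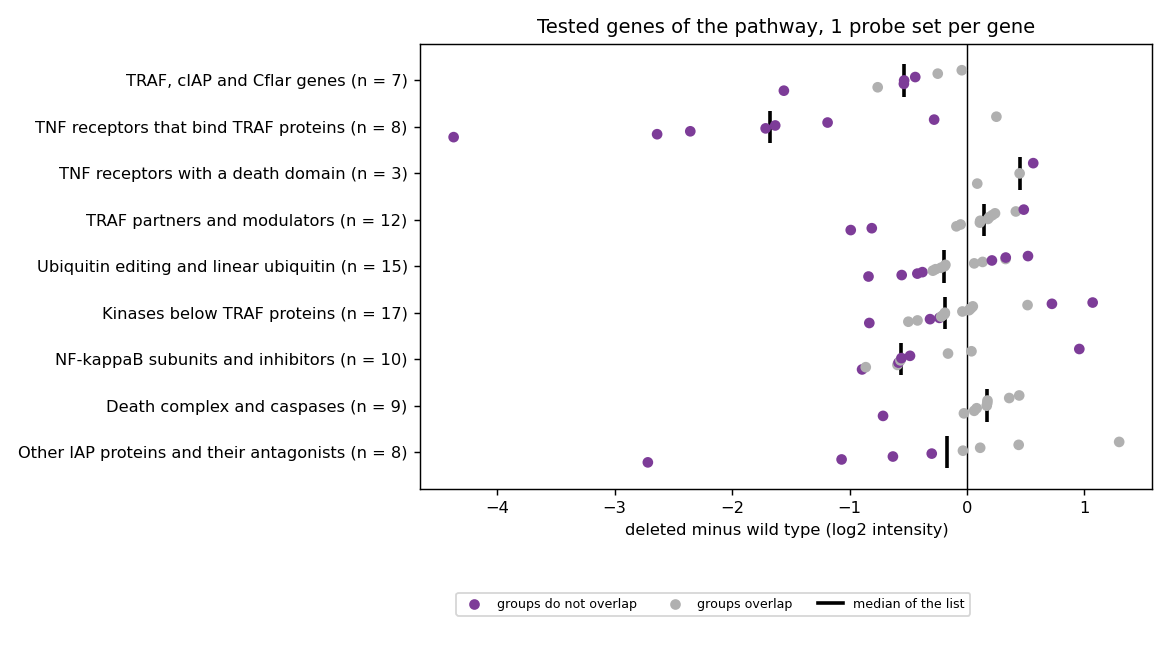
Deleted minus wild-type difference in log2 intensity (x axis) of each tested gene of the members and of 8 pathway lists (y axis, spread vertically within a list so that points can be told apart), with purple points where the groups do not overlap, grey points where they do and a black bar at the median. The TRAF-binding receptors have a median of -1.67, the members one of -0.54, and the other lists lie between -0.56 and 0.45.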

How the data were processed

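RNA of 4 samples was measured on 1 oligonucleotide array each. The deposited values are linear intensities. Per the submitters' processing notes the authors computed them with GCRMA 1.1.3, which subtracts a probe-specific background and so leaves dim probe sets close to a floor. Its other settings are not known here. Array medians lay between 8.38 and 8.94, and no array equalled another. The number of arrays limits the precision.

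Values were converted to log2 with no pseudocount. After 64 control probe sets were left out, the 16281 probe sets with a mean log2 value of at least 4 were fitted with limma 3.58.1 in R 4.3.3 (lmFit, eBayes with an intensity trend), two-sided, adjusted by Benjamini-Hochberg at 0.05, with 2 residual and 2.98 prior degrees of freedom. Lists used the brightest probe set per gene. The procedure was run on data simulated from its own variance model with independent arrays, which cannot show that this model holds for the real arrays. Tables and plots used Python 3.11.15, pandas 2.3.3 and matplotlib 3.10.9. Promoter windows came from RefSeq, GRCm38.p6.

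Text names all members, Foxp3, the 5 patterns most like the leading member, and per list up to 3 tested genes with the largest difference without overlap. Tnfrsf13c, Cd40, Tnfrsf25, Fas and Xiap were added after their values were seen. The members and lists were chosen with earlier results of these data known.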

Additional observations from a re-analysis of the deposited data

How the results depend on the processing

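No member passed an adjusted p of 0.05 in limma under any of the alternatives run (filter, centring, quantile normalization, floor, pseudocount, prior, 1 probe set per gene, replicate block, each array left out). Over these the Traf2 difference lay between -1.61 and -1.35 and its adjusted p between 0.238 and 0.805. With the stricter filter of 6, over 10024 probe sets, 7 were called higher and 13 lower, none of them members, and those at least 2-fold apart without overlap numbered 583 higher and 387 lower, where 1086 and 746 were counted at the filter of 4. They numbered 712 and 439 with log2(value + 16) and 481 and 425 with 1 probe set per gene, where 1 member was lower. With each array left out they ranged from 1021 to 2257 higher and from 998 to 1415 lower, and members from 1 to 3 lower. Leave-one-out differences that changed sign ranged from -0.26 to 0.18 (Traf1 1445452_at) and from -0.60 to 0.10 (Traf6 1435350_at). The fits that leave out an array assume that the lone array varies like the other group. A lone array also meets the no-overlap condition more easily, so counts with an array left out are not directly comparable with those over all 4. With the replicate number as a block 0 probe sets were called and the adjusted p of Traf2 was 0.671. The labels do not say that numbers pair the samples, and same-numbered deviations correlated at -0.24. The crossed pairing, added after seeing the data, called 0 probe sets and gave Traf2 an adjusted p of 0.223. Probe sets below the filter, 8 of the 20, sit near the floor, so no difference between groups can be read there.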
